A study of Mus musculus with 12 samples.

Results

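Messenger RNA levels in the root-forming part of the mouse molar germ at postnatal day 4 were described from 6 control libraries of a series of 12. The libraries were chosen by their genotype label, Nfic+/-, and the 6 libraries of Nfic-/- littermates were not used here. Each control library held total RNA from the apical part of first mandibular molars of C57BL/6 mice, sequenced on an Illumina instrument, and carries a number from 5 to 10. Every control animal had 1 functional copy of Nfic, which encodes a nuclear factor I transcription factor required for molar root formation, so no wild-type level was measured. The labels do not say whether molars were pooled, and they give no sex. The spread between libraries may hold technical differences as well as differences between animals.

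At this stage the crown is still being built while the root begins. Ameloblasts, which derive from the dental epithelium, secrete the enamel matrix proteins amelogenin (Amelx), ameloblastin (Ambn) and enamelin (Enam). Odontoblasts, which derive from the dental mesenchyme, secrete a dentin matrix of collagen I and acidic phosphoproteins, and the apical epithelium and mesenchyme exchange Hedgehog, BMP and Wnt signals. The dissected piece holds all of these tissues together with follicle, vessels, blood and macrophages. In such bulk samples, fewer cells of a type and less RNA per cell cannot be told apart.

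Levels are given as RPKM, the reads per kilobase of gene scaled to the depth of the library, so that genes of different length can be compared within a library. Means are given ± SD over the 6 libraries (n = 6), and ranks follow the mean of log2 RPKM among 21003 protein-coding genes. The values corresponded to an estimated 70000000 to 95200000 reads per library, and 1 read in a gene of 1 kb was worth 0.0105 to 0.0143 RPKM. Of the 21003 protein-coding genes, 10160 (48.4%) had 1 RPKM or more in all 6 libraries and 8989 (42.8%) had less than 1 RPKM in all 6. These are the shares against which the counts for gene groups below are to be read. The number of genes of any kind at 1 RPKM or more ranged from 11175 in library 5 to 12518 in library 10.

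Some libraries stood apart. Libraries 8 and 9 held transcripts of the intestinal epithelium, a tissue that the labels do not name. The summed level of 24 intestinal genes was 266 and 402 RPKM in libraries 8 and 9 and 3.28 to 8.57 RPKM in the other 4, and 23 of the 24 genes were higher in both libraries than in any of the other 4. The antimicrobial lectin gene Reg3b read 80.8 and 164 RPKM there and at most 0.0167 RPKM elsewhere. Their part in the results below was not tested. A few results are also given without these libraries, and all other means, SDs and counts below include them. Ddx3y, a Y-linked gene, read 8.75 to 10.5 RPKM in libraries 5, 7, 8 and 9 and at most 0.00262 RPKM in libraries 6 and 10. Xist, the RNA of the inactive X chromosome, read 10.02 and 13.6 RPKM in libraries 6 and 10, 0.424 and 0.250 RPKM in libraries 8 and 9, and at most 0.00325 RPKM in libraries 5 and 7.

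The promoters of the 3 enamel matrix genes are shown first, because these genes were among the 5 highest by mean level. Each line gives the 100 bases before the RefSeq start (build GRCm38.p6) on the gene's own strand, 5′ to 3′, with TATAAA and CCAAT in capitals on either strand, so that CCAAT on the other strand reads ATTGG.
Amelx, chrX:169187210-169187309, minus strand: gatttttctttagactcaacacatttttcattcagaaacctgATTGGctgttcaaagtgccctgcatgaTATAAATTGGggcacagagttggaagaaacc
Ambn, chr5:88455891-88455990, plus strand: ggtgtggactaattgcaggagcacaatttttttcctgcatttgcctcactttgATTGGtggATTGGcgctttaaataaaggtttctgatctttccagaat
Enam, chr5:88487875-88487974, plus strand: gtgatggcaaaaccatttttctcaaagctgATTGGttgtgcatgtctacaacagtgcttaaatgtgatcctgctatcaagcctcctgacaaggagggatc
All 3 windows held CCAAT on the opposite strand, starting 58 and 26 bases before the start in Amelx, 47 and 39 bases before it in Ambn, and 70 bases before it in Enam. The Amelx window alone of the 3 held TATAAA, starting 31 bases before the start, and its last base was shared with the ATTGG that follows. Over all 32851 promoters of the RefSeq table, 18.9% held CCAAT on either strand in the same 100 bases, 5.56% held TATAAA and 1.005% held both. Of the 21 named genes among the 25 highest, 15 were matched to that table, and CCAAT was present in 5 and TATAAA in 2 of them. These matches describe letters only.

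The enamel matrix genes Amelx and Ambn had the highest levels of all genes listed for the apical germ. Mitochondrially encoded genes, all listed at the floor, cannot be placed in this ranking. Amelx (ENSMUSG00000031354, chromosome X, 169176114 to 169187200, minus strand, GRCm38) read 106179, 28240, 66950, 62038, 62944 and 36657 RPKM in libraries 5 to 10. Library 5 was the highest and libraries 6 and 10 were the lowest, a 3.76-fold range around a mean of 60501 ± 27370 RPKM. Ambn (chromosome 5, 88455991 to 88468531) read 33502, 6765, 22931, 21193, 21197 and 12395 RPKM in the same order, and its highest and lowest libraries were those of Amelx. Amelx ranked 1 and Ambn ranked 2 in all 6 libraries. Enam (chromosome 5, 88487975 to 88506049) read 890 to 1925 RPKM, with a median of 1405 RPKM, and varied less, by 2.16-fold.

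Amelx took 7.55 ± 3.57% of the reads assigned to genes, and, because it is a short transcript, 22.0 ± 8.36% of the summed RPKM, a measure closer to the share of molecules. The 3 enamel matrix genes together made up 14.3% of the summed RPKM in library 6 and 46.5% in library 5. As few as 12 genes accounted for 50% of the summed RPKM in library 5, and 441 genes did so in library 6. With Amelx and Ambn set aside, the number was 673 to 878 genes in the 6 libraries. Chromosome X carried 5.35% to 14.97% of the gene reads and chromosome 5, where Ambn, Enam and Dspp lie, 7.81% to 14.2%.

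Secreted and matrix genes made up much of the rest of the ranking, and Clu and Col1a1 stood above Enam by mean level. Clu, which encodes the secreted chaperone clusterin, read 2672 ± 580 RPKM, and Col1a1 and Col1a2, the chains of collagen I, read 2235 ± 471 and 713 ± 81.8 RPKM. The collagen-binding matrix protein gene Sparc stood at 928 ± 145 RPKM and the dentin phosphoprotein gene Dspp at 614 ± 129 RPKM. The basal keratins Krt5 (592 ± 93.4 RPKM) and Krt14 (507 ± 77.3 RPKM) and the gap junction gene Gja1, which encodes connexin 43 (491 ± 67.1 RPKM), also ranked among the 25 highest. The others included the membrane protein gene Itm2b (979 ± 119 RPKM), the cyclophilin gene Ppic (967 ± 92.2 RPKM), the elongation factors Eef1a1 (1035 ± 177 RPKM) and Eef2 (539 ± 96.9 RPKM), and the mitochondrial leucyl-tRNA synthetase gene Lars2. Lars2 was the least even of these, with 885 RPKM in library 7 and 289 RPKM in library 10. Whether reads from elsewhere in the genome added to the level of Lars2 was not tested.

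**Figure D1:**
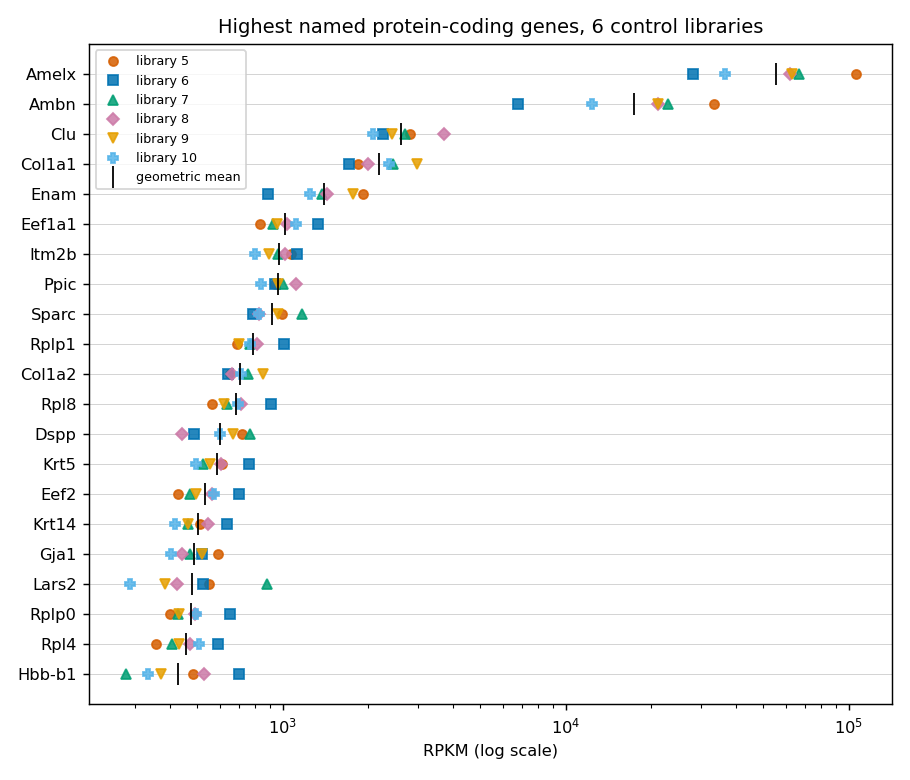
Levels of the 21 named genes among the 25 highest protein-coding genes, in RPKM on a log axis, with 1 symbol per control library and a bar at the geometric mean. Amelx (28240 to 106179 RPKM) and Ambn (6765 to 33502 RPKM) lie above all other genes in every library, and library 5 is the highest and library 6 the lowest for both.

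Below the leaders the exact order carried little weight. Of the 24 pairs of neighbours in the ranking of 25, 3 stood in the same order in all 6 libraries: Amelx above Ambn, Ambn above Clu, and Rpl8 above a predicted gene. Clu stood above Col1a1 in 4 of 6 libraries, and Itm2b stood above Ppic in 2 of 6. All 25 genes were among the 25 highest again without libraries 8 and 9. Of the 25, 4 were predicted genes, which are not named, and of the 50 highest genes of any biotype 19 were predicted genes or pseudogenes. Ribosomal protein genes such as Rplp1 (792 ± 116 RPKM), Rpl8 (691 ± 122 RPKM) and Rplp0 (482 ± 90.4 RPKM) have near-identical copies elsewhere in the genome, so their levels are uncertain. The same holds for the glycolytic gene Gapdh, listed at 4.62 ± 0.411 RPKM, and for the cyclophilin gene Ppia at 19.1 ± 3.23 RPKM. All 13 mitochondrially encoded genes were listed at the floor of the table in all 6 libraries.

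Genes of enamel formation covered a wide range of levels. Of 15 enamel genes, 12 had 1 RPKM or more in all 6 libraries, and their median level was 44.2 RPKM against 1.27 RPKM over all protein-coding genes. Sp6, which encodes a transcription factor needed for ameloblast differentiation, read 241 to 338 RPKM. Mmp20, the protease of secretory-stage enamel, read 283, 105, 225, 163, 237 and 145 RPKM in libraries 5 to 10. Klk4, the protease of maturation-stage enamel, read 12.3, 2.05, 13.2, 3.01, 5.68 and 1.86 RPKM, lower than Mmp20 in every library and highest in libraries 5 and 7. Within libraries Mmp20 was 39.0-fold above Klk4 (log2 ratio 5.29 ± 0.83 SD, exact 2-sided sign-flip permutation test over 6 libraries, p = 0.03125, adjusted p = 0.0326). The lowest members were the maturation-stage genes Wdr72 (0.358 ± 0.195 RPKM) and the calcium exchanger gene Slc24a4 (0.137 ± 0.0541 RPKM).

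The enamel and dentin genes of chromosome 5 belong to the secretory calcium-binding phosphoprotein family, and the genes beside them covered the full range of levels. The stretch around Odam, Amtn, Ambn and Enam (87825686 to 88556090) held 18 genes of the table, of which 11 were below 1 RPKM in all 6 libraries. Over all 25899 genes of any biotype, 49.5% were, so this count is not read as a trait of the stretch. Odam, which encodes an ameloblast-associated protein of the enamel surface, read 19.5 to 72.2 RPKM. Amtn, which encodes amelotin, read 69.7 RPKM in library 5 and 7.97 RPKM in library 7, and 0.370 to 1.37 RPKM in the other 4, so that its mean of 13.5 RPKM rested on library 5. The casein gene Csn3 was high in the same libraries, with 49.6 RPKM in library 5 and 5.89 RPKM in library 7 against 0.0629 to 1.01 RPKM in the others. The salivary genes Smr2 and Prol1, which lie between Odam and Amtn, were at the floor in all 6. In the second stretch (104170712 to 104505819) Dspp stood at 614 RPKM and Mepe, a few genes along, at 0.0715 ± 0.0746 RPKM. Amelx lies inside Arhgap6, a gene on the opposite strand, which read 0.236 to 0.308 RPKM.

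Some genes of mineral ion handling and of ameloblast adhesion were also high. Calb1, which encodes the calcium-binding protein calbindin, read 309 to 432 RPKM, and the phosphate transporter gene Slc20a2 read 94.3 to 187 RPKM. Of 24 genes of ion transport, 18 had 1 RPKM or more in all 6 libraries, with a median of 9.77 RPKM, and 2 were below 1 RPKM in all 6. Of 15 adhesion genes, 12 had 1 RPKM or more in all 6 libraries, with a median of 12.4 RPKM, and 2 were below 1 RPKM in all 6. High among the adhesion genes were also the laminin gene Lamb3 (146 ± 31.2 RPKM) and the hemidesmosomal collagen gene Col17a1 (90.9 ± 7.82 RPKM).

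Several markers of basal epithelium were high, but not all genes of the list were. Of 31 genes of the dental epithelium, 26 had 1 RPKM or more in all 6 libraries, with a median of 27.1 RPKM. The desmosomal gene Dsg3 had the lowest mean level, and 1 of the 31 was below 1 RPKM in all 6 libraries. Krt5 stood above its partner Krt14 in 6 of 6 libraries by a small and even margin (1.17-fold, log2 ratio of Krt14 over Krt5 -0.22 ± 0.05 SD, exact sign-flip permutation p = 0.03125, adjusted p = 0.0326). A margin of this size depends on the gene lengths the authors used. Krt17 (410 ± 52.6 RPKM) and the desmosomal gene Perp (306 ± 59.4 RPKM) followed. Of 15 genes of cornifying epithelium 4 had 1 RPKM or more in all 6 libraries, and none reached a geometric mean of 10 RPKM. Krt8, a keratin of simple epithelia, read 10.4 and 11.3 RPKM in libraries 8 and 9 and 0.811 to 4.09 RPKM in the others, where its mean was 1.72 RPKM.

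Of 19 odontoblast and dentin genes, several of which are also bone matrix genes, 18 had 1 RPKM or more in all 6 libraries, with a median of 37.6 RPKM. Dspp read 716, 488, 766, 441, 671 and 602 RPKM in libraries 5 to 10, and Dmp1, a phosphoprotein of dentin and bone, read 29.3, 139, 33.3, 56.5, 51.1 and 61.9 RPKM. Dspp was 11.2-fold above Dmp1 within libraries (log2 ratio 3.48 ± 1.05 SD, exact sign-flip permutation p = 0.03125, adjusted p = 0.0326), by the least in library 6. The osteocalcin gene Bglap read 154 RPKM in library 6 and 305 to 600 RPKM in the others, and its near-identical neighbour Bglap2 had a mean of 294 ± 110 RPKM, so reads may be split between them. The bone sialoprotein gene Ibsp (28.1 ± 14.0 RPKM) stood above the osteopontin gene Spp1 (12.5 ± 3.74 RPKM) in 6 of 6 libraries. Of 12 genes of osteoblasts and osteocytes beyond this list, 8 had 1 RPKM or more throughout, with a median of 6.13 RPKM. Their highest member was osteomodulin, Omd, at 22.3 RPKM in library 5 and 134 RPKM in library 6, and Fgf23 and Kl were the lowest, both below 1 RPKM in all 6.

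The general machinery that folds and exports secreted proteins was abundant. All 24 genes of endoplasmic reticulum folding and secretion had 1 RPKM or more in all 6 libraries, with a median of 56.4 RPKM. The disulfide isomerase genes P4hb (330 ± 28.1 RPKM) and Pdia3 (234 ± 38.4 RPKM) led them, and the stress-induced factor gene Ddit3 was the lowest at 3.63 ± 0.874 RPKM. Of 19 genes of collagen modification and crosslinking, 18 had 1 RPKM or more throughout, with a lower median of 17.8 RPKM. Serpinh1, the collagen-specific chaperone, read 314 to 447 RPKM, and the lysyl hydroxylase gene Plod2 read 114 to 211 RPKM. Of 43 collagen chain genes, 26 had 1 RPKM or more throughout. Col1a1 was 3.10-fold above Col1a2 (log2 ratio 1.63 ± 0.15 SD) and 15.9-fold above Col3a1 (log2 ratio 3.99 ± 0.64 SD), each in 6 of 6 libraries (exact sign-flip permutation p = 0.03125, adjusted p = 0.0326 for each). Col11a2, a chain of a minor fibrillar collagen, read 60.4 to 133 RPKM, and 9 of the 43 genes were below 1 RPKM in all 6.

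**Figure D2:**
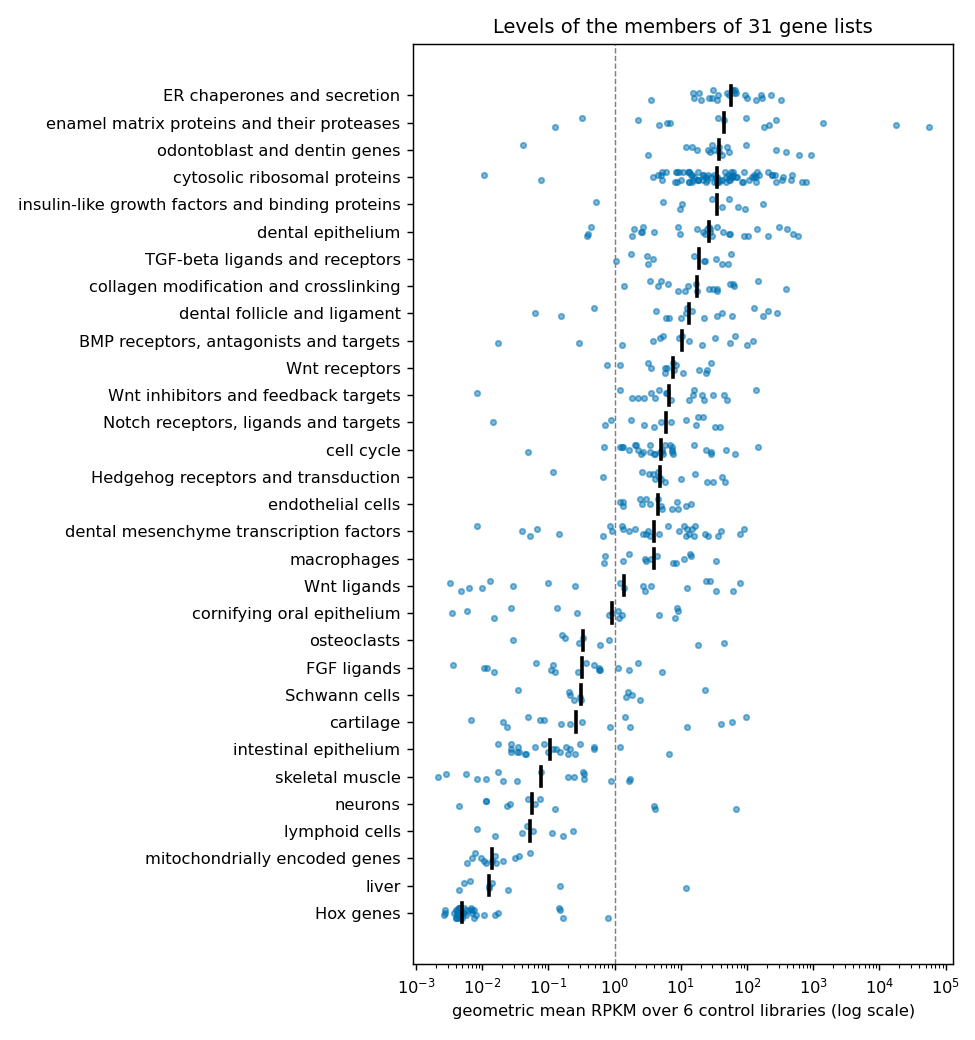
Level of each member of 31 gene lists, as the geometric mean RPKM over the 6 control libraries on a log axis, with a bar at the median of the list and a dashed line at 1 RPKM. The medians run from 56.4 RPKM for genes of endoplasmic reticulum folding and secretion to 0.00498 RPKM for Hox genes.

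Of 368 transcription factor genes in 14 families, 148 (40.2%) had 1 RPKM or more in all 6 libraries and 64 had a geometric mean of 10 RPKM or more. Sp6 was above all others in 6 of 6 libraries. The inhibitors of DNA binding Id3 (129 ± 37.2 RPKM) and Id1 (100 ± 16.1 RPKM), which are BMP targets, followed, and then the homeobox genes Dlx3 (97.4 ± 18.7 RPKM), Barx1 (95.4 ± 31.8 RPKM) and Msx2 (78.7 ± 14.2 RPKM). Barx1, a regulator of molar identity in the mesenchyme, read 52.4 RPKM in library 5 and 134 RPKM in library 10. Of the 15 highest factors, Sox21 alone had its highest level in library 5 (82.8 RPKM) and its lowest in library 6 (40.7 RPKM). All 6 Dlx genes had 1 RPKM or more throughout, Dlx3 1.92-fold above Dlx5 and Msx2 2.10-fold above Msx1, each in 6 of 6 libraries (exact sign-flip permutation p = 0.03125, adjusted p = 0.0326 for each).

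None of 39 Hox genes had 1 RPKM or more in all 6 libraries, 12 were at the floor in all 6, and the highest was Hoxd8 at 0.504 to 1.30 RPKM. Of 19 Gata and T-box genes, 3 had 1 RPKM or more throughout, led by Tbx1 (33.0 ± 11.9 RPKM), a gene of pharyngeal and dental development, and Tbx2 (20.02 ± 8.88 RPKM). Of 43 forkhead genes, 17 had 1 RPKM or more throughout. Foxf1a, a Hedgehog target in mesenchyme, was the highest of these at 26.6 ± 9.02 RPKM.

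**Figure D3:**
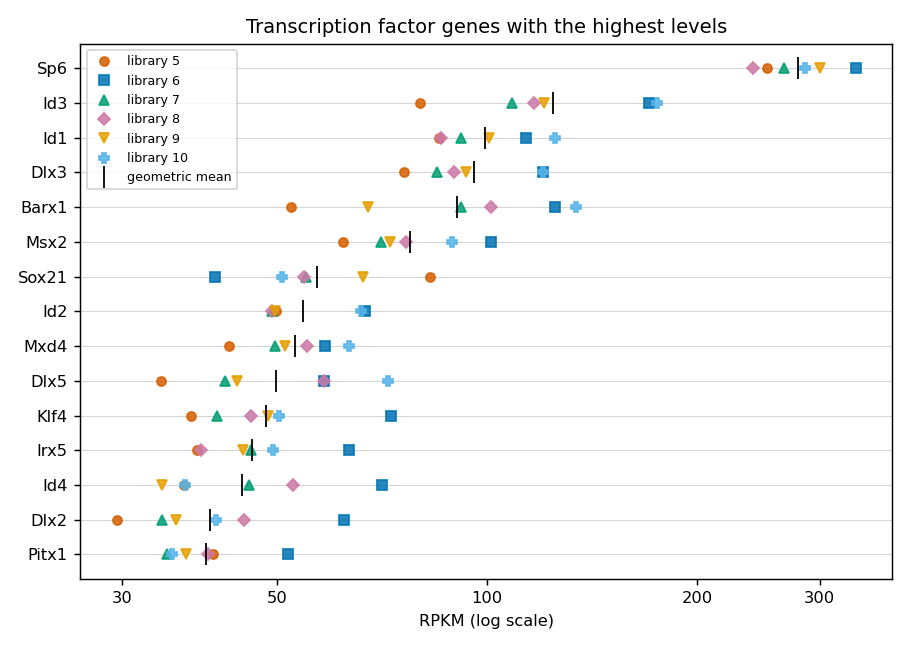
Levels of the 15 highest transcription factor genes in RPKM on a log axis, with 1 symbol per control library and a bar at the geometric mean. Sp6 (241 to 338 RPKM) lies above the others in every library, and library 5 is the highest for Sox21 but the lowest for Id3, Dlx3, Barx1 and Msx2.

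Nfic was a moderately expressed gene in these heterozygous animals. It read 11.3, 18.2, 15.04, 16.8, 15.1 and 24.5 RPKM in libraries 5 to 10, with rank 2045 among protein-coding genes. Library 10 was the highest and library 5 the lowest. Nfix read 12.3 ± 2.78 RPKM and stood below Nfic in 6 of 6 libraries (log2 ratio -0.45 ± 0.21 SD, exact sign-flip permutation p = 0.03125, adjusted p = 0.0326). Nfib (2.12 ± 0.634 RPKM) and Nfia (0.958 ± 0.254 RPKM) were lower, and Nfia was the family member that did not reach 1 RPKM in every library.

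Hedgehog signalling was represented by 1 ligand and nearly all of its receiving machinery. Shh, the ligand, read 70.5, 235, 81.3, 110, 98.6 and 107 RPKM in libraries 5 to 10, with library 6 well above the rest. Dhh and Ihh, the other ligands, were below 1 RPKM in all 6 libraries, and Ihh reached its highest values in libraries 8 and 9 (0.344 and 0.357 RPKM). The receptor Ptch1 read 31.6 to 68.6 RPKM, the transducer Smo 31.6 to 54.2 RPKM, and the co-receptor Gas1 20.1 to 30.7 RPKM. Ptch1, which is also a target, was 2.82-fold above the effector and target Gli1 (17.1 ± 5.30 RPKM) in 6 of 6 libraries (log2 ratio 1.49 ± 0.34 SD, exact sign-flip permutation p = 0.03125, adjusted p = 0.0326). Of 16 receptor and transduction genes, 14 had 1 RPKM or more throughout, and Scube2 (0.128 ± 0.0503 RPKM) and Hhat, the Hedgehog acyltransferase gene, did not.

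Of 19 Wnt ligand genes, 9 had 1 RPKM or more in all 6 libraries, close to the 48.4% of all protein-coding genes, led by Wnt6 (64.4 to 104 RPKM), Wnt10a (53.3 to 71.2 RPKM), Wnt4 (27.6 to 41.4 RPKM) and Wnt3a (22.2 to 38.7 RPKM). Wnt10a was 44.6-fold above Wnt10b within libraries (log2 ratio 5.48 ± 0.62 SD, exact sign-flip permutation p = 0.03125, adjusted p = 0.0326). Receptors were broader, with 13 of 15 at 1 RPKM or more throughout, and Ryk (28.7 ± 3.07 RPKM), Fzd7 (25.1 ± 5.69 RPKM) and Fzd6 (24.4 ± 2.11 RPKM) at the top. Secreted inhibitors and feedback targets had 17 of 20 members above that level. Wif1, a secreted Wnt inhibitor, read 75.6 RPKM in library 5 and 219 RPKM in library 6, and Sostdc1, an inhibitor of Wnt and BMP ligands known to restrain tooth number, read 37.3 to 81.3 RPKM.

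Among BMP ligands, Bmp4 (34.3 ± 6.66 RPKM), Bmp7 (33.3 ± 3.26 RPKM) and Bmp2 (18.7 ± 7.67 RPKM) were the highest of 11. Bmp4 and Bmp2 were the 1 pair of 24 whose order was not the same in every library. Bmp4 was higher in 5 of 6 libraries and Bmp2 in library 10, where it read 31.4 RPKM against 26.8 RPKM (log2 ratio 0.96 ± 0.85 SD, exact sign-flip permutation p = 0.0625, adjusted p = 0.0625). Bambi, a decoy receptor of the pathway, read 67.6 ± 9.59 RPKM. In the TGF-beta group 11 of 12 genes had 1 RPKM or more throughout, including the receptor Tgfbr2 (57.1 ± 5.76 RPKM) and the ligands Tgfb1 (42.6 ± 3.09 RPKM) and Tgfb3 (34.4 ± 5.14 RPKM).

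FGF ligands were low, and the receptors Fgfr1 and Fgfr2 were higher. Of 18 ligand genes, 3 had 1 RPKM or more in all 6 libraries, and the highest, Fgf1, read 4.30 to 6.22 RPKM. Fgf3, a ligand of dental mesenchyme, read 4.35 RPKM in library 10 and 0.483 to 1.43 RPKM in the others. Fgfr1 (75.2 ± 13.0 RPKM) was 3.79-fold above Fgfr2 (20.4 ± 6.03 RPKM) in 6 of 6 libraries (exact sign-flip permutation p = 0.03125, adjusted p = 0.0326). Of 11 genes of FGF receptors and feedback, 9 had 1 RPKM or more throughout, and the receptor Fgfr4 was the lowest. In the Notch group 11 of 14 genes had 1 RPKM or more throughout. The ligand Jag2 (38.8 ± 4.77 RPKM) stood 2.11-fold above Jag1, and the receptor Notch2 (17.7 ± 5.63 RPKM) stood 4.23-fold above Notch1, each in 6 of 6 libraries (exact sign-flip permutation p = 0.03125, adjusted p = 0.0326 for each). The target Hes1 was among the steadier genes in the values as deposited, at 20.1 to 22.8 RPKM.

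Other signalling genes with high levels included the insulin-like growth factor binding proteins Igfbp5 (182 ± 42.1 RPKM) and Igfbp3 (97.4 ± 31.7 RPKM). Tnfrsf19, a receptor related to the ectodysplasin receptor, read 66.8 ± 16.1 RPKM, whereas the ligand Eda (2.18 ± 0.650 RPKM) and the receptor Edar (1.90 ± 0.615 RPKM) were near 2 RPKM. Cyp26a1, which degrades retinoic acid, read 278 RPKM in library 6 and 89.0 to 141 RPKM in the other 5. Of 32 cell cycle genes, 27 had 1 RPKM or more throughout, and the highest were the inhibitors Cdkn1a (146 ± 13.3 RPKM) and Cdkn1c (69.9 ± 23.1 RPKM). The immediate early genes Fos (2.15 ± 0.640 RPKM) and Jun (10.7 ± 1.53 RPKM) differed in level, with Fos below Jun in 6 of 6 libraries (exact sign-flip permutation p = 0.03125, adjusted p = 0.0326). In the list of 19 immediate early genes, 16 had 1 RPKM or more throughout, with a median of 4.57 RPKM.

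**Figure D4:**
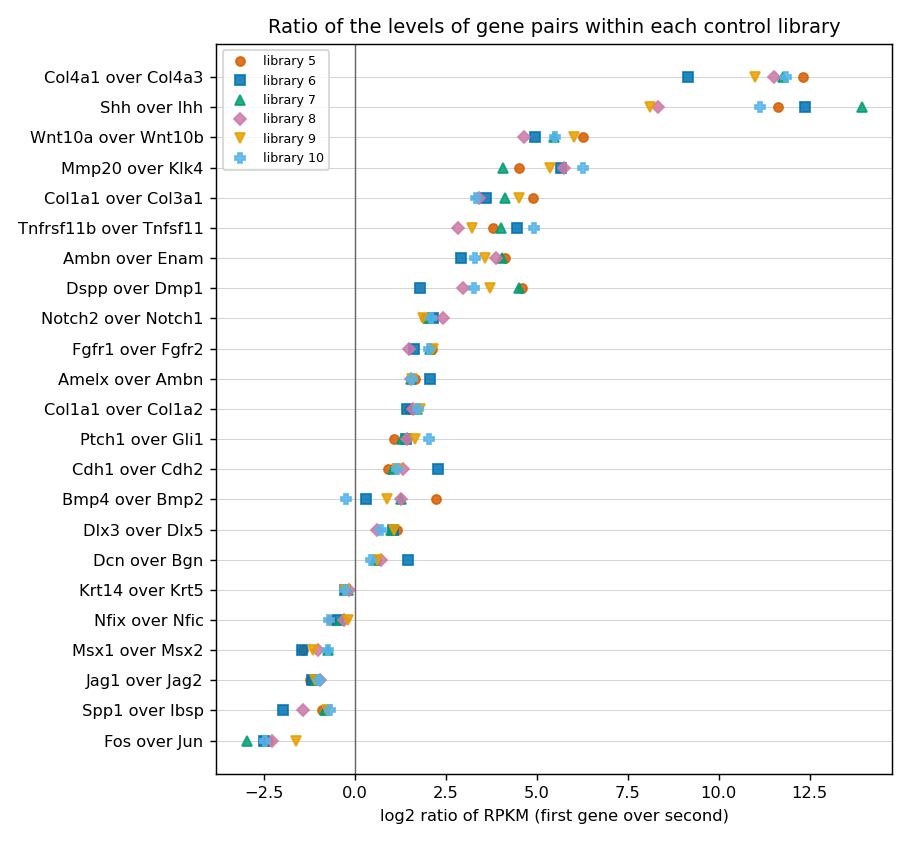
Difference in log2 RPKM between the members of 23 of the 24 gene pairs within each control library, on a linear axis with a line at 0, with 1 symbol per library. All 6 libraries lie on the same side of 0 in each pair shown with 1 exception, Bmp4 over Bmp2, which runs from -0.23 in library 10 to 2.23 in library 5.

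Of these 24 pairs, 23 stood in 1 order in all 6 libraries, and 19 did so by more than 1.5-fold in each. With 6 libraries the smallest p that the exact test can give is 0.03125, so it does not grade the 23 pairs. Every pair in 1 order in all 6 libraries gets this p, which adds nothing to the shared order. As for Krt5 and Krt14, small margins such as Nfix below Nfic and Dcn above Bgn depend on the gene lengths the authors used. For Shh over Ihh and for the basement membrane collagens Col4a1 (49.0 ± 10.6 RPKM) over Col4a3 (0.0292 ± 0.0345 RPKM), the lower member was close to the floor in some libraries, and no fold is given. The cadherin of epithelia, Cdh1, was 2.50-fold above Cdh2, and the proteoglycan gene Dcn was 1.66-fold above Bgn, both in 6 of 6 libraries and both by the most in library 6.

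Of 18 genes of follicle and ligament, 15 had 1 RPKM or more throughout, led by the proteoglycans Lum (155 to 437 RPKM) and Dcn (166 to 289 RPKM). Of 15 endothelial genes 13 did so, led by Plvap (14.6 ± 2.06 RPKM) and Cdh5 (12.2 ± 2.99 RPKM), and of 14 macrophage genes 10 did so, led by Lyz2 (38.1 ± 18.6 RPKM) and the complement gene C1qa (14.7 ± 3.45 RPKM). Globin transcripts such as Hbb-b1 (279 to 701 RPKM) marked red blood cells. Among 9 osteoclast genes, 6 were below 1 RPKM in all 6 libraries and the median was 0.333 RPKM. The cathepsin gene Ctsk (46.1 ± 8.82 RPKM) and the phosphatase gene Acp5 (19.3 ± 6.53 RPKM) were detected throughout, while Calcr (0.0337 ± 0.0175 RPKM) and the fusion gene Ocstamp (0.166 ± 0.0576 RPKM) were low. The decoy receptor gene Tnfrsf11b, which encodes osteoprotegerin, was 14.8-fold above Tnfsf11, the gene of the osteoclast-inducing ligand RANKL, in 6 of 6 libraries (log2 ratio 3.88 ± 0.77 SD, exact sign-flip permutation p = 0.03125, adjusted p = 0.0326).

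Lists of neighbouring tissues are set beside the 42.8% of all protein-coding genes that were below 1 RPKM in all 6 libraries. In the neuron list Tubb3 read 69.8 ± 15.1 RPKM, but 9 of 12 members, among them the synaptic gene Snap25 and the RNA-binding protein gene Elavl3, were below 1 RPKM in all 6 libraries. In the cartilage list Col11a2 and Col9a3 (62.1 ± 19.2 RPKM) were high, while 9 of 16 members were below 1 RPKM throughout, and the defining genes Col2a1 and Acan read 1.80 ± 0.489 and 0.252 ± 0.168 RPKM. Of 17 skeletal muscle genes, 14 were below 1 RPKM in all 6 libraries, as were 10 of 11 salivary genes, 8 of 9 liver genes, and all 8 lymphoid genes. Among 11 Schwann cell genes 6 were below that level, which is nearer to the share over all genes, as is the count for cartilage.

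In the values as deposited, the largest differences between libraries set library 5 apart from libraries 6 and 10. Over 11028 protein-coding genes with a geometric mean of 1 RPKM or more, the first principal component held 67.2% of the variance. Library 5 stood at 0.71 on it and libraries 6 and 10 at -0.46 and -0.47. The component also holds the shift of the median gene given below, which sets the same libraries apart. No component is given with that shift removed. Pairwise correlations of log2 RPKM across the 11028 genes, which are not independent, ran from 0.949 to 0.987. Of 61 gene lists, library 5 had the lowest mean log2 RPKM in 42, libraries 6 and 10 together the highest in 40 (23 and 17), and library 5 the highest in 2. The enamel list stood 0.87 above the mean of the 6 libraries in library 5 and -0.66 and -0.48 from it in libraries 6 and 10. For the cell cycle list the values were -0.76, 0.37 and 0.70, and for the follicle list they were -0.74, 0.15 and 0.42.

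The median gene was shifted by -0.27 log2 in library 5 and by 0.23 and 0.19 log2 in libraries 6 and 10. After each library was shifted back by its own median, library 5 had the lowest value in 29 of the 61 lists and library 8 the highest in 27. The enamel list then stood 1.14 above the mean in library 5 and -0.88 in library 6, the cell cycle list stood at -0.48 and 0.14, and the follicle list at -0.47 and -0.08. The list of 16 reference genes spanned 0.54 log2 between libraries before the shift and 0.07 after it. Libraries 6 and 10 were also the libraries without Y-linked signal, and the part of sex or of the level of the cut in these differences was not tested.

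**Figure D5:**
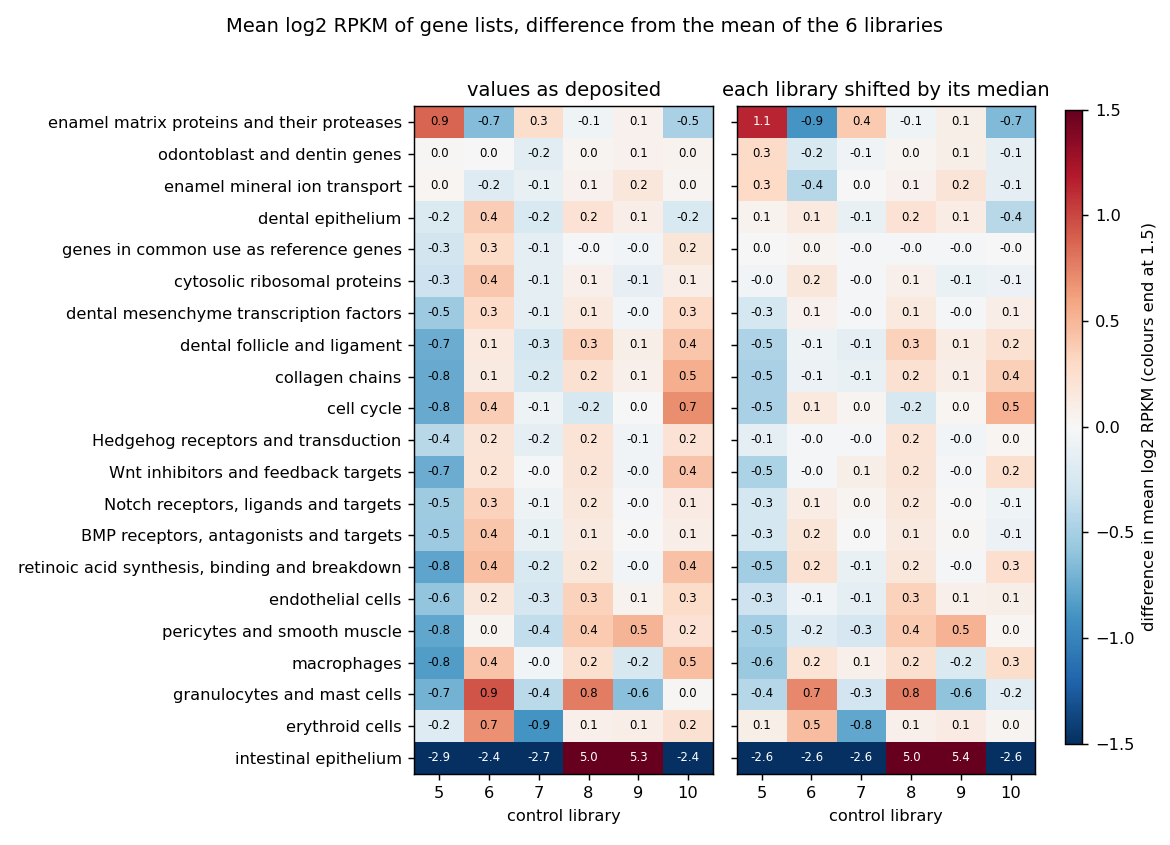
Mean log2 RPKM of 21 gene lists in each control library as the difference from the mean of the 6 libraries, as deposited (left) and after each library was shifted by its median (right). In both panels the enamel list is highest in library 5 (0.87 and 1.14) and lowest in library 6 (-0.66 and -0.88), and the intestinal list is high in libraries 8 and 9 alone.

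Which single genes varied most depended on the minimum level set. Among 3537 protein-coding genes with a geometric mean of 10 RPKM or more, the median SD between libraries was 0.20 log2. The 10 largest SDs, 0.99 to 1.22 log2, belonged to Smoc2, Rspo4, S100a9, Stfa1, Dio3, Fbn2, Vcan, S100a8, Sfrp2 and Col6a3. Rspo4, which encodes an R-spondin that amplifies Wnt signals, read 14.4, 84.4, 66.0, 61.9, 57.0 and 194 RPKM in libraries 5 to 10. Smoc2, which encodes a secreted calcium-binding matrix protein, read 4.88 RPKM in library 5 and 13.3 to 44.8 RPKM in the others. The matrix genes Vcan (6.08 to 54.2 RPKM) and Fbn2 (4.63 to 46.5 RPKM) were lowest in library 5 and highest in library 10.

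The granulocyte genes S100a8 and S100a9 were instead highest in libraries 6 and 8, with 84.3 and 71.9 RPKM and with 67.0 and 63.7 RPKM, and so was the protease inhibitor gene Stfa1. None of the 3 had its lowest value in library 5. Of the 200 most variable genes, 150 had their lowest value in library 5 and 96 their highest in library 10. These counts use the values as deposited, in which the median gene was itself shifted by -0.27 log2 in library 5 and 0.19 log2 in library 10. The same counts over all genes are not given, so they are not read as a trait of these 200 genes. Without library 5, 4 of the 10 genes stayed among the 10 most variable, and without libraries 8 and 9, 6 did. At a lower minimum, a geometric mean of 1 RPKM, the 10 most variable genes were all others. They included Lyz1, Krt8, Mttp and Anpep, which were highest in libraries 8 and 9, the libraries with intestinal transcripts. Lyz1 read 46.7 and 40.2 RPKM there and 0.418 to 1.53 RPKM in the other 4. Amtn and Klk4, highest in libraries 5 and 7, were also among them. At the other end, the nuclear import gene Kpna3 (13.7 ± 0.263 RPKM), the apoptosis regulator gene Bad (15.7 ± 0.335 RPKM), Tmem167b (19.8 ± 0.435 RPKM) and the respiratory chain gene Ndufa4 (168 ± 4.06 RPKM) varied least, with SDs of 0.03 log2. These SDs also use the values as deposited. A gene this even on that scale is less even once each library is shifted by its median.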

How the data were processed

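The authors deposited 1 table of 25899 genes under the label RPKM. The deposited values, which lie between -11.1 and 16.7 in the control libraries, were read as log2 RPKM made by the authors from aligned reads. With base 2 they sum, over gene length, to 0.773 to 0.835 of the reads, and with base e to 8.23 to 28.4 times the reads. The aligner was TopHat2 and the build mm10, per the submitters' processing notes. Not given in the sources used here are the counting tool, its annotation, its use of strand and its treatment of reads with several matches. Genes without reads carry a floor of 0.9 reads. As a check of this floor, in genes at it in most libraries, 99.7% of 914 values under 20 reads were whole within 0.02 reads. The depths were estimated from the floor values of protein-coding genes and their exon lengths in GENCODE M21. Shares of reads use the same lengths, which may differ from those the authors used. Low levels are limited by the floor, for counting error only. Genes were matched to GENCODE M21 (24987 of 25899).

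Values were turned back to RPKM, and a gene at 1 RPKM or more in all 6 libraries was counted as detected. The log2 ratios of 24 gene pairs were tested by an exact 2-sided sign-flip permutation test with Benjamini-Hochberg adjustment over the pairs. The ranking and the test were checked on simulated data. The software was numpy 2.4.6 and pandas 2.3.3 under Python 3.11.15, with figures from matplotlib 3.10.9. Genes named were the 25 highest, up to 4 highest and 2 lowest of each of 63 lists, the 15 highest transcription factors, the 10 most and 5 least variable genes, the pairs, and Nfic, without predicted genes or clones. Odam, Amtn, Csn3, Smr2, Prol1, Arhgap6, Reg3b, Krt8, Lyz1, Ddx3y, Xist and a few members of lists were named after their values were seen. Members and lists were chosen with earlier results of these data known. A few members of lists and 1 pair are not reported here by name.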

Additional observations from a re-analysis of the deposited data

Results flagged for a closer look

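Of 109 groups of 6 values examined for a single distant library, 5 had one, and chance gives about 1 in 20. The mean log2 RPKM of the dentin list was 4.97 in library 7 and 5.14 to 5.20 in the others. That of the FGF ligands was -2.01 in library 10 and -2.48 to -2.31 in the others. Library 6 was distant in 3 of the 24 pairs. Its log2 ratio of Amelx over Ambn was 2.06 against 1.55 to 1.66, that of Cdh1 over Cdh2 was 2.30 against 0.91 to 1.32, and that of Dcn over Bgn was 1.47 against 0.46 to 0.73.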

How the results depend on the processing

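No paired analysis was possible because only the control group was used and each number occurs once in it. Under other limits, 14786 genes had 0.1 RPKM, 12480 had 0.5 RPKM, 5660 had 5 RPKM and 3093 had 10 RPKM or more in all 6 libraries, against 10984 genes of any biotype at 1 RPKM, and 13368 had 1 TPM. Leaving out single libraries gave 10994 to 11422 genes, and leaving out libraries 8 and 9 gave 11028. Of the 25 highest genes, 20 to 25 were shared with each other ranking. The share of Amelx was 7.55% of reads and 22.0% of summed RPKM, and 6.36% to 8.38% of reads with single libraries left out. Of the 63 lists, 36 had a median above the 50th percentile under every setting tried. Percentiles were taken among genes above the floor in any control library. With protein-coding genes as the base, the median percentile of 22 of the 63 lists was counted as moved. With libraries left out, that of 1 or 2 lists was. The 23 ordered pairs became 19 with a limit of 1.5-fold and 24 without library 10. The 10 most variable genes depended on the setting: 0 were shared at a minimum mean of 1 RPKM and 1 at 50 RPKM, where other genes are eligible, 6 by range, 6 without libraries 8 and 9, 4 to 9 without single libraries, and 7 after the shift by the median, which was chosen after seeing the data. At these depths, levels under about 0.01 RPKM in a gene of 1 kb rest on 1 read or none.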

Other observations

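Genes of matrix breakdown were led by the membrane protease gene Mmp14 (96.2 to 143 RPKM) and the gelatinase gene Mmp2 (32.3 to 90.5 RPKM), with the inhibitor gene Timp2 at 57.5 ± 15.2 RPKM (SD, n = 6). Of 19 genes of this list, 11 had 1 RPKM or more in all 6 libraries, and Mmp3 and Mmp12 were below 0.1 RPKM in all 6. Among genes of retinoic acid handling, the binding protein gene Crabp1 read 14.5 RPKM in library 5 and 76.1 RPKM in library 10, and Rdh10, an enzyme of retinoic acid synthesis, read 6.94 and 35.4 RPKM in the same libraries.

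Muscle genes were low but uneven. Des, which encodes desmin, read 0.749 and 1.02 RPKM in libraries 8 and 9 and 0.124 to 0.230 RPKM in the others, and Acta1, skeletal muscle actin, read 3.53 and 2.29 RPKM against 1.05 to 1.69 RPKM. These were the libraries with intestinal transcripts, and the part of that tissue in these values was not tested. In the melanocyte list Dct read 1.71 to 3.62 RPKM in the 6 libraries, whereas Tyr and Tyrp1 were below 0.01 RPKM in all 6.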
